A study of Mus musculus with 12 samples.

Results

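Igfl3, Igflr1 and 2610528A11Rik, the mouse gene of the Gpr15 ligand, are 3 of the 14533 genes in a table of read counts from mouse epidermis. They were chosen by name as ligands and a receptor that signal to T cells, after the difference of Igfl3 and 2610528A11Rik between the genotypes in these same libraries was known. Their levels in the genotypes are therefore given as a description, without a test. For the 3 genes, tests are kept to sex and to relations within a genotype, which the choice did not use. Other genes carry the genotype test fitted over the whole table.

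Dorsal skin of untreated C57BL/6 mice, non-lesional by the study's methods, was frozen. Its epidermis was scraped until the vascular bed beneath it showed, and RNA of 1 mouse went into each library. The 6 WT mice (replicates 1 to 6) were Pparg flox/flox without Cre (Cytokeratin14 promoter-driven Cre-/-). The 6 Pparg-/-epi mice (replicates 7 to 12) were Pparg flox/flox with Cytokeratin14 promoter-driven Cre+/-, so deletion is limited to cells in which that promoter has been active. By the labels, mice were 8 to 13 weeks old in both groups, though the study's supplement gives other ages, with the widest gaps for WT replicate 2 and Pparg-/-epi replicate 10, which it lists as older. There were 3 females and 3 males among the WT and 4 females and 2 males among the Pparg-/-epi mice. Total counts ran from 10120840 to 16947632 in WT and from 11272135 to 18851255 in Pparg-/-epi libraries. By these totals 1 count is worth 0.0530 to 0.0988 CPM, the count scaled to a library total of 1e+06. RNA integrity numbers (RIN) were between 5.9 and 8.6 in WT, and between 5.7 and 8.6 in Pparg-/-epi mice.

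Igfl3 encodes a small secreted protein of the insulin growth factor-like family, the mouse counterpart of human IGFL1, which is made by keratinocytes and rises in inflamed and wounded skin. Igflr1 encodes its receptor, a membrane protein that resembles receptors of the tumour necrosis factor family and is found on T cells. The Gpr15 ligand is a secreted, chemokine-like peptide of epithelia in skin and gut, and its receptor Gpr15 guides T cells into those tissues.

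Pparg itself did not tell the genotypes apart. In CPM scaled by trimmed mean of M values (TMM), as in all CPM below, it had a lowest value of 0.533, a median of 2.39 and a highest of 14.3 in WT. In Pparg-/-epi libraries the same values were 1.33, 4.05 and 6.49. The floxed allele loses only part of the gene and leaves a shortened transcript, and the counts cover the whole gene, so this overlap checks no label.

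WT replicate 2 stood apart from its group over the whole table. On the first dimension of a plot of distances over the 500 most different genes of each pair, it lay at 1.19, while the other WT libraries lay between -1.99 and -0.91 and the Pparg-/-epi libraries between 0.12 and 1.97. It had the highest Pparg level of all 12 libraries and a keratinocyte marker sum of 15381 CPM, the lowest of all. Across all genes, 1493 (10.3%) were altered between the genotypes, meaning a change of 0.6 or more on the log2 scale in either direction with edgeR's quasi-likelihood test passed at an adjusted p of 0.05. Of these, 754 (5.19% of all genes) were higher in Pparg-/-epi. Without WT replicate 2 the number altered was 2249.

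The ligand Igfl3 lies on chromosome 7 of mm10 from 18176494 to 18181862 on the plus strand, with 4 exons that sum to 575 bases. The Gpr15 ligand gene lies on chromosome 14 from 37102140 to 37110101 on the minus strand, with 3 exons of 756 bases in all. Their upstream sequences are shown because these are the 2 genes of the 3 that differed widely between the genotypes. Each is the 250 bases before the start site in RefSeq on GRCm38.p6, 5′ to 3′ on the gene's own strand. Capitals mark TATAAA, the core of a TATA box.
Igfl3, chr7:18176244-18176493, plus strand: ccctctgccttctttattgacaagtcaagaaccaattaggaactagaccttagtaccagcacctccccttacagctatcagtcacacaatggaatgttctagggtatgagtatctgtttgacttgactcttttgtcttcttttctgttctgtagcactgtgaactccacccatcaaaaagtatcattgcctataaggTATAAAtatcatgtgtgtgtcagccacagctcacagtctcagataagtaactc
2610528A11Rik, chr14:37110102-37110351, minus strand: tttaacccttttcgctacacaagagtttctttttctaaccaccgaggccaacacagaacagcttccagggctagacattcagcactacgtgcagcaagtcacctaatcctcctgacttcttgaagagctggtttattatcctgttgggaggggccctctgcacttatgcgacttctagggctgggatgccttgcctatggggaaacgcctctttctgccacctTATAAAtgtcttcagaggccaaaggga

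Both windows held TATAAA, from 53 to 48 bases before the start of Igfl3 and from 27 to 22 bases before that of 2610528A11Rik, each on the gene's own strand. On either strand this word occurs in 12.4% of 32851 mouse promoter windows of this length, and in 7.14% of the 13983 windows of genes in the count table. The window of Igflr1 did not hold it. None of the 3 windows matched the other words sought on both strands. These were the activator protein 1 word TGANTCA (6.75% of all windows), the STAT word TTCNNNGAA (7.02%), the GC box GGGCGG (32.7%, and 54.9% of the windows of genes in the count table), and the NF-kB consensus (3.90%). The nuclear receptor hexamer AGGTCA (14.0%) and its direct repeat with 1 base between the copies (0.0335%) were not matched either. The GC content was 41.2% for Igfl3, 49.2% for 2610528A11Rik and 52% for Igflr1, beside a median of 52.4% over all windows. A match describes letters and does not show that a factor binds.

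Igfl3 was near the floor of detection in WT skin. The WT libraries held 12, 10, 0, 1, 1 and 0 counts in the order of replicates 1 to 6. A count of 0 allows up to 3 counts, which is 0.296 CPM in replicate 3 and 0.190 CPM in replicate 6 by total counts. These limits cover counting error only. The Pparg-/-epi libraries held 256, 275, 336, 70, 106 and 120 counts in the order of replicates 7 to 12. In CPM the WT libraries had a lowest level of 0, a median of 0.0731 and a highest of 0.767, and the Pparg-/-epi libraries 5.82, 11.8 and 20.4. Almost all WT counts came from replicates 1 and 2, and the genotypes did not overlap. The table lists genes above 0.5 CPM in at least 6 libraries, which Igfl3 met only through the Pparg-/-epi libraries. The log2 fold change was 5.56 with a standard error of 0.70. In bulk tissue, fewer cells that make an RNA and less of it in each cell cannot be told apart, for this gene and for those below.

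2610528A11Rik was low but present in each WT library. The counts were 25, 123, 31, 24, 56 and 19 in WT replicates 1 to 6 and 615, 445, 1424, 378, 670 and 473 in Pparg-/-epi replicates 7 to 12. The WT libraries had a lowest level of 1.20 CPM, a median of 2.46 and a highest of 6.53, and the Pparg-/-epi libraries 27.0, 36.3 and 86.2. WT replicate 2 and Pparg-/-epi replicate 9 were the highest of their groups, and the genotypes did not overlap. The log2 fold change was 3.89 with a standard error of 0.46. Of all genes, 574 (3.95%) had every Pparg-/-epi library above every WT library in CPM, and 2 of the 3 genes were among them, as their choice implies.

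Igflr1, the receptor, lies on chromosome 7 from 30565427 to 30567962 on the plus strand, with 5 exons that sum to 1186 bases. Its counts were 119, 148, 94, 110, 126 and 153 in WT replicates 1 to 6, and 144, 107, 106, 124, 107 and 126 in Pparg-/-epi replicates 7 to 12. The lowest, median and highest levels were 7.40, 8.74 and 10.0 CPM in WT and 6.42, 8.58 and 10.8 CPM in Pparg-/-epi libraries. The genotypes overlapped over nearly their whole range. The log2 fold change was -0.04 with a standard error of 0.18.

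**Figure D1:**
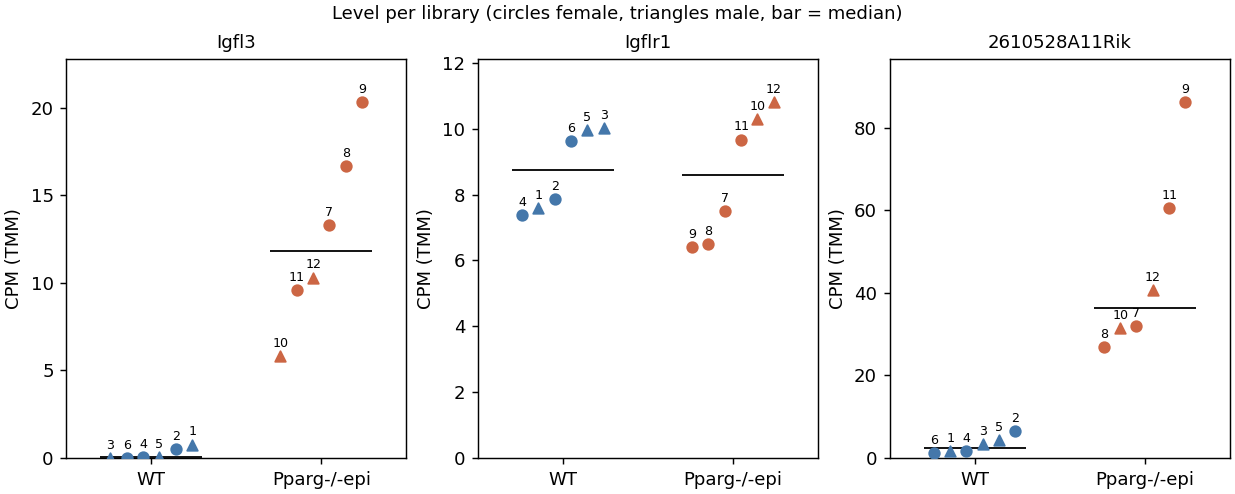
Level of Igfl3, Igflr1 and 2610528A11Rik in CPM (vertical axis, TMM-scaled) in each of the 6 WT and 6 Pparg-/-epi libraries. Numbers are replicates, circles are females, triangles are males and bars are medians. Igfl3 and 2610528A11Rik lie higher in all Pparg-/-epi libraries, and the Igflr1 levels overlap.

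Levels per length put the genes on 1 scale, in RPKM, which is CPM divided by the exon length in kilobases. In Pparg-/-epi libraries 2610528A11Rik had 61.3 ± 30.3 RPKM (SD, n = 6), Igfl3 22.0 ± 9.12 and Igflr1 7.20 ± 1.66. That order held in each of the 6 libraries. The ratio of 2610528A11Rik to Igfl3 ran from 1.23 in replicate 8 to 4.81 in replicate 11, and that of Igfl3 to Igflr1 from 1.16 in replicate 10 to 6.54 in replicate 9. In WT libraries the order was another, with Igflr1 at 7.37 ± 1.05 RPKM, 2610528A11Rik at 4.12 ± 2.75 and Igfl3 at 0.419 ± 0.568 (SD, n = 6). The ranges of Igflr1 and 2610528A11Rik overlapped in WT, since 2610528A11Rik exceeded the receptor in replicate 2, by a ratio of 1.30. Igfl3 at 1.33 RPKM or less lay under the lowest level of 2610528A11Rik, 1.58.

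The 2 ligand genes did not keep the same order over the libraries of a genotype. In WT, Igfl3 was highest in replicate 1, where 2610528A11Rik was the next to lowest. In Pparg-/-epi libraries both were highest in replicate 9, but 2610528A11Rik was lowest in replicate 8, where Igfl3 was the next to highest. Igflr1 was lowest in replicate 9 and highest in replicate 12.

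**Figure D2:**
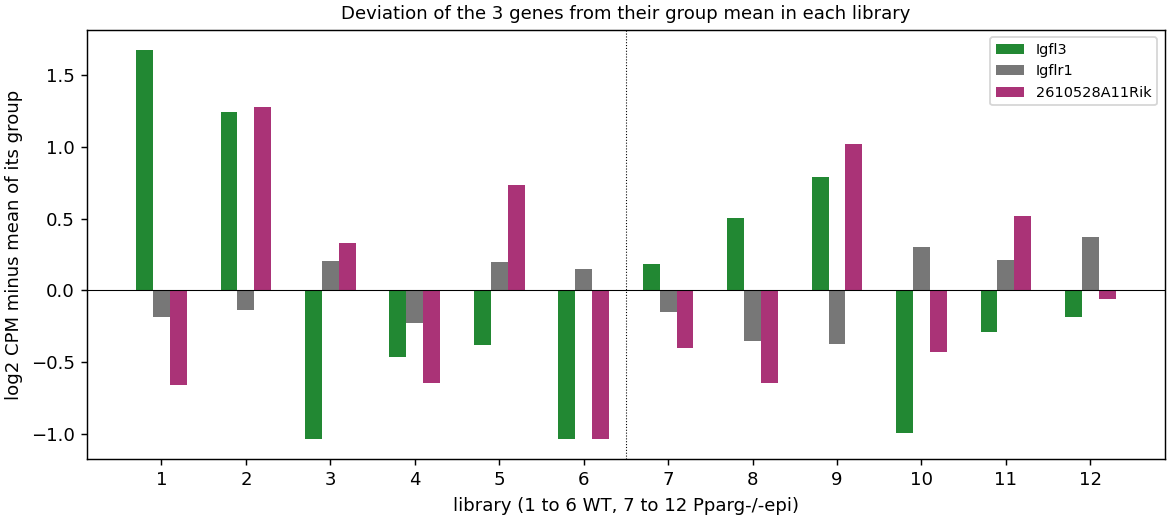
Difference of log2 CPM from the mean of the gene's own group (vertical axis) in each library, WT replicates 1 to 6 on the left and Pparg-/-epi replicates 7 to 12 on the right. Bars of Igfl3 and Igflr1 point opposite ways in all 6 Pparg-/-epi libraries, and those of 2610528A11Rik follow neither gene.

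Relations were tested within each genotype, since the genotypes form separate clusters for the ligands. There were 12 relations over 6 libraries each, with exact two-sided permutation of all 720 pairings and Benjamini-Hochberg adjustment over the 12. Igfl3 and Igflr1 had the strongest relation, a negative one in Pparg-/-epi libraries. Pearson's r was -0.87 (exact permutation p = 0.025, adjusted p = 0.300) and Spearman's rho was -0.83 (exact p = 0.0583, adjusted p = 0.700). Without replicates 9 and 10, the farthest from the Igfl3 median, r was -0.94. In WT the same pair had an r of -0.69 (exact permutation p = 0.194, adjusted p = 0.778) and a rho of -0.49 (exact p = 0.328, adjusted p = 0.952). Without replicates 1 and 2 that r was -0.46, among libraries with only 0 or 1 counts of Igfl3. Neither passed the adjustment.

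Igfl3 and 2610528A11Rik showed no relation that this number of libraries could establish. In Pparg-/-epi libraries r was 0.34 (exact permutation p = 0.497, adjusted p = 0.892) and rho 0.20 (exact p = 0.714, adjusted p = 0.952). Without replicates 9 and 10 r turned to -0.92, so the positive value rests on those libraries. In WT r was 0.23 (exact permutation p = 0.578, adjusted p = 0.892) and rho 0.29 (exact p = 0.578, adjusted p = 0.952), and r was 0.34 among the 4 libraries with 0 or 1 counts of Igfl3. For Igflr1 and 2610528A11Rik, r was 0.16 in WT (exact permutation p = 0.790, adjusted p = 0.892) and -0.12 in Pparg-/-epi libraries (exact permutation p = 0.786, adjusted p = 0.892). Their rho was 0.26 (exact p = 0.658, adjusted p = 0.952) and -0.14 (exact p = 0.803, adjusted p = 0.963). Without the 2 libraries farthest from the Igflr1 median, r was -0.11 and 0.29.

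**Figure D3:**
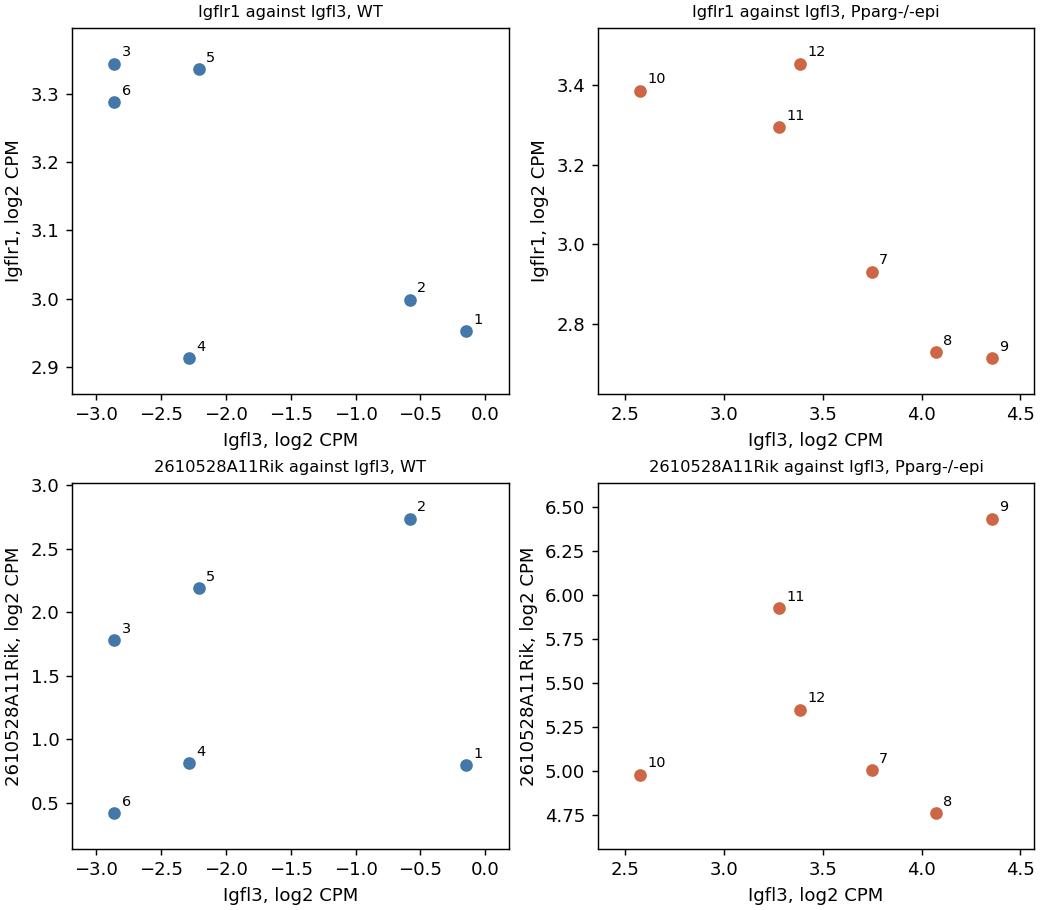
Igflr1 (top) and 2610528A11Rik (bottom) against Igfl3, all in log2 CPM with a prior count of 2, over the 6 WT (left) and 6 Pparg-/-epi libraries (right). Numbers are replicates. Igflr1 falls as Igfl3 rises among Pparg-/-epi libraries (r = -0.87), while 2610528A11Rik shows no clear course with Igfl3.

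No sex difference of the 3 genes passed adjustment. In a fit with genotype and sex, the log2 difference of males over females was -0.39 for Igfl3 (standard error 0.70, adjusted p = 0.772), 0.31 for Igflr1 (standard error 0.16, adjusted p = 0.333) and -0.28 for 2610528A11Rik (standard error 0.45, adjusted p = 0.742). Over all genes, 2 (0.0138%) passed for sex by edgeR's quasi-likelihood test, Xist and Kdm6a, and 2340 had an unadjusted p under 0.05. The likelihood ratio test called 8 genes for sex and DESeq2 called 134. The interaction of genotype and sex was -1.46 on the log2 scale for Igfl3 (standard error 1.38, adjusted p = 0.917), 0.35 for Igflr1 (standard error 0.32, adjusted p = 0.911) and -0.48 for 2610528A11Rik (standard error 0.92, adjusted p = 0.956). No gene of all those tested (0%) passed for the interaction by edgeR's quasi-likelihood test, with 741 at an unadjusted p under 0.05. The likelihood ratio test called 4 genes (Krt16, Krt6b, BC100530 and Tagap1) and DESeq2 called 10. DESeq2 gave no adjusted p for the interaction of Igfl3 or Igflr1. Among Pparg-/-epi mice, Igfl3 ran from 9.59 to 20.4 CPM in the 4 females and from 5.82 to 10.3 in the 2 males, with overlap.

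The mouse names share the start 29 and differ in the number after it, whose meaning is not given. Names come from the sample labels, except those of Pparg-/-epi replicates 11 and 12, which are blank there and were taken from the study's supplement. The split that follows was chosen after the values were seen and so has no test. Pparg-/-epi replicates 7, 8 and 9, with the numbers 192 and 195, had 13.3 to 20.4 CPM of Igfl3, and replicates 10, 11 and 12, with 222 and 225, had 5.82 to 10.3. For Igflr1 the order was the reverse, 6.42 to 7.49 CPM against 9.68 to 10.8, without overlap. 2610528A11Rik overlapped, with 27.0 to 86.2 CPM against 31.4 to 60.6. All mice of the former set were female with a RIN of 7.7 to 8.6. The latter had 1 female and 2 males with a RIN of 5.7 to 7.7. By the labels, the former were 12 or 13 weeks old and the latter 8 to 12. Name, sex, age and RNA quality therefore cannot be told apart here. Among WT mice, replicates 1 and 2, with the numbers 217 and 222 and a RIN of 7.4 and 8.6, had 0.767 and 0.531 CPM of Igfl3. The other 4, all with the number 226 and a RIN of 5.9 to 7.1, had 0 to 0.0790 CPM. By the labels, WT replicates 1 and 2 were 8 and 9 weeks old, and the other 4 were 12 or 13. Igflr1 and 2610528A11Rik overlapped between these WT sets. In Pparg-/-epi mice the negative relation of Igfl3 and Igflr1 follows the same split, and no set has enough libraries for a relation of its own.

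No number but 222 has mice of both genotypes, WT replicate 2 and Pparg-/-epi replicate 10. Between them Igfl3 was 0.531 and 5.82 CPM, 2610528A11Rik 6.53 and 31.4 CPM, and Igflr1 7.85 and 10.3 CPM.

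The scraped tissue held the markers of keratinocytes in all libraries. The 8 markers summed to between 15381 and 41057 CPM in WT and between 27211 and 49616 CPM in Pparg-/-epi libraries, with Krt10 the most abundant at 18420 ± 5737 and 18230 ± 4402 CPM (SD, n = 6). Krt14, whose promoter drives the Cre, and Ivl were altered and higher in Pparg-/-epi, and the other 6 were not altered. Over all genes 5.19% were higher and 10.3% altered in either direction. Other cells were present too. Fibroblast markers (6 of 6 listed, none altered, Col1a1 the most abundant) summed to between 1014 and 34533 CPM in WT and between 5324 and 11169 CPM in Pparg-/-epi libraries.

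Markers of several other cell types were high in the libraries that were high in Igfl3, in each genotype. Of the 6 endothelial markers Pecam1 was the most abundant, and Emcn alone was altered (higher), beside 5.19% of all genes. These markers summed to 79.4, 133, 10.0, 17.9, 38.1 and 7.99 CPM in WT replicates 1 to 6. They summed to 165, 204, 169, 34.5, 81.6 and 45.8 CPM in Pparg-/-epi replicates 7 to 12. WT replicates 1 and 2, which held nearly all WT counts of Igfl3, had the highest endothelial sums of WT. Pparg-/-epi replicates 7, 8 and 9, the highest in Igfl3, had the highest sums of that genotype, and replicate 10 had the lowest of both. Macrophage markers took the same course, with sums of 365 and 706 CPM in WT replicates 1 and 2 and of 91.7 to 189 CPM in the other 4. In Pparg-/-epi replicates 7, 8 and 9 they summed to 392, 439 and 370 CPM, and replicate 10 was lowest at 238. The mean log2 CPM of fibroblast markers was highest in WT replicates 1 and 2 (10.65 and 9.94) and in Pparg-/-epi replicates 7, 8 and 9 (9.66, 9.83 and 9.41). Their summed CPM did not follow this course in Pparg-/-epi libraries, with 7858 in replicate 9 and 9437 in replicate 10. The part of these cells in the levels of Igfl3 was not tested.

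**Figure D4:**
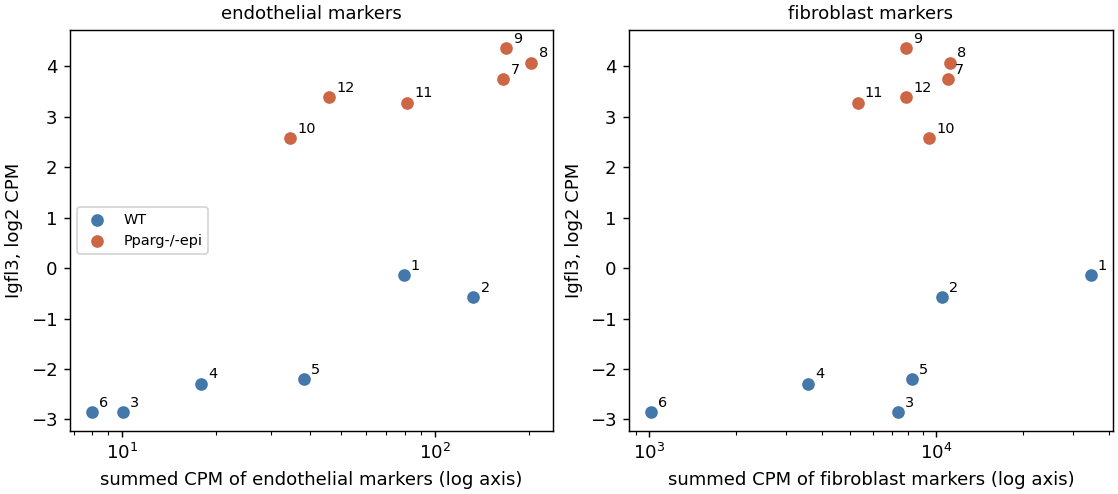
Igfl3 in log2 CPM (vertical axis) against the summed CPM of 6 endothelial markers (left) and of 6 fibroblast markers (right), both on log axes, in 6 WT and 6 Pparg-/-epi libraries numbered by replicate. In each genotype the libraries with the highest endothelial sums have the most Igfl3.

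The genes most like each of the 3 were found by Pearson's r of log2 CPM after the mean of each genotype was subtracted, over 12 libraries and 13800 genes with a mean of at least 1 CPM. These are descriptions without a test, and the libraries share tissue composition and depth. The 5 most like Igfl3 were Fez1 (r = 0.98), Lpar1 (0.97), Acta2 (0.97), Gpr153 (0.97) and Ppic (0.97). None of them was altered between the genotypes, beside 10.3% of all genes. These r rest in part on values at the floor, since WT replicates 3 to 6 held 0 or 1 counts of Igfl3. Among Pparg-/-epi libraries alone, r of the 5 with Igfl3 ran from 0.86 to 0.96. Acta2, an actin of smooth muscle, had 58.0 ± 65.0 CPM in WT (SD, n = 6) and 63.2 ± 44.5 CPM in Pparg-/-epi libraries. The 5 most like 2610528A11Rik were Igsf8 (0.97), Relt (0.89), Pnldc1 (0.88), Fam78a (0.86) and Rras (0.86). Among Pparg-/-epi libraries alone, their r with it ran from 0.63 to 0.94. Igsf8 had 39.9 ± 7.03 and 57.3 ± 5.13 CPM (SD, n = 6), a log2 difference of 0.52 (standard error 0.12, adjusted p = 0.00968) that is under the fold threshold. The 5 most like Igflr1 were Rabggta (0.92), Mid1ip1 (0.91), Sharpin (0.91), Adtrp (0.91) and Rnf126 (0.91). Of these, Mid1ip1 and Adtrp were altered and lower in Pparg-/-epi, beside 10.3% of all genes altered in either direction. By the same measure the r between Igfl3 and 2610528A11Rik was 0.26, and 5221 of the 13800 genes were more like Igfl3 than 2610528A11Rik was.

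Neighbours on the chromosome differed among the 3 genes. The nearest listed gene to 2610528A11Rik is Cdhr1, a cadherin gene on the same strand whose exons begin 3829 bases past its end. Cdhr1 had 0 to 7 counts in WT and 6 to 56 in Pparg-/-epi libraries, with overlap, and its log2 difference was 3.50 (standard error 0.63, adjusted p = 0.00318). On the other side Ghitm, 10344 bases away, had a log2 difference of -0.20 that did not pass (standard error 0.0796, adjusted p = 0.105). Mill1, 63485 bases from Igfl3 on the same strand, rose from 78.5 ± 30.2 CPM to 193 ± 46.9 CPM in Pparg-/-epi libraries (SD, n = 6), a log2 difference of 1.30 (standard error 0.23, adjusted p = 0.00302). Hif3a, 1114067 bases to the other side, showed no difference that passed (log2 difference 0.00217, standard error 0.35, adjusted p = 0.997).

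Igflr1 lies 63 bases past U2af1l4 on the same strand and 893 bases from Kmt2b on the opposite strand, and neither was altered, with log2 differences of 0.10 (adjusted p = 0.639) and 0.13 (adjusted p = 0.560). In GENCODE M21 on the same build, the gene model Gm49396 covers 99.8% of the Igflr1 exon bases, and 91.2% of the 75-base stretches of its transcripts also occur in that model. Gm49396 is neither in the count table nor in the RefSeq genes of GRCm38.p6, and the study's methods name a RefSeq annotation, so reads of such a transcript would count for Igflr1. Igfl3 and 2610528A11Rik share no 75-base stretch with transcripts of another gene.

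Gpr15, the receptor of the 2610528A11Rik product, is not in the table. Each listed gene exceeds 0.5 CPM in at least 6 libraries, so no level can be given for Gpr15. A gene near 0 in WT can thus be listed only where Pparg-/-epi libraries are high. This favours rises among such genes in all lists. Of 23 genes of Gpr15 and T cell homing, 19 were listed, 7 were higher in Pparg-/-epi and 1 was lower, beside 5.19% higher and 10.3% altered of all genes. The median log2 fold change was 0.70 beside -0.01 over all genes. The largest rise was that of the chemokine gene Ccl1, from 0.435 ± 0.397 to 4.53 ± 1.62 CPM (SD, n = 6; log2 fold change 3.37, adjusted p = 0.00178). The other chemokines that rose were Ccl20 (log2 fold change 1.80, adjusted p = 0.0384), Ccl22 (1.64, adjusted p = 0.00297), Ccl17 (1.27, adjusted p = 0.0430) and Cxcl16 (1.18, adjusted p = 8.4e-05). Among receptors Ccr6 (2.13, adjusted p = 0.0489) and Cxcr6 (0.75, adjusted p = 0.0214) were higher, and Ccr4 was lower (-1.03, adjusted p = 0.0319). The count of 8 was sensitive to single libraries. It was 3 without Pparg-/-epi replicate 8, and 4 without WT replicate 3, 4 or 5 or Pparg-/-epi replicate 7 or 9. It was 5 without WT replicate 6 or Pparg-/-epi replicate 11, and 11 without WT replicate 2. The number altered over all genes moved too, from 1493 to between 1116 and 1320 in the fits with 3 to 5. Without WT replicate 2 it was 2249. In females alone 1 gene of the list was altered, beside 651 over all genes in that fit.

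T cell markers, which bear on Igflr1 as a receptor of these cells, did not separate the genotypes. The 12 markers, all listed, summed to between 74.4 and 173 CPM in WT and between 82.7 and 123 CPM in Pparg-/-epi libraries, with Cd3g the most abundant. Cd5 was altered and higher (log2 fold change 2.28, adjusted p = 0.00272) and Cd3e altered and lower (-0.75, adjusted p = 0.0325). Over all genes 5.19% were higher and 10.3% altered in either direction. Within a genotype Igflr1 and the mean log2 CPM of these markers had an r of 0.09 in WT (exact permutation p = 0.871, adjusted p = 0.892) and of 0.52 in Pparg-/-epi libraries (exact permutation p = 0.279, adjusted p = 0.838). Their rho was -0.09 (exact p = 0.919, adjusted p = 0.983) and 0.37 (exact p = 0.497, adjusted p = 0.952). Without the 2 libraries farthest from the marker median, r was -0.69 in WT and 0.49 in Pparg-/-epi libraries, so no relation in WT holds.

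The keratinocyte genes of wounds and psoriasis, the setting in which IGFL proteins are known, were listed for 21 of 29. Of the 21, 18 were altered and higher in Pparg-/-epi, beside 5.19% of all genes, and none was altered and lower, with a median log2 fold change of 2.74. The list was chosen with earlier results of these data known, among them rises of several of its genes. This count is therefore a description. Lce3e, with 0 to 12 counts in WT, is listed only through the Pparg-/-epi libraries. Krt6b, Defb14 and Areg did not pass. The largest rises were those of Il1f6, a cytokine of the interleukin 1 family (log2 fold change 3.90, adjusted p = 0.000797), Sprr1b (3.65, adjusted p = 0.00287), Sprr2d (3.24, adjusted p = 0.00482) and Lce3e (3.14, adjusted p = 0.00723). Il1f6 had 0.538 to 8.50 CPM in WT and 32.0 to 57.2 CPM in Pparg-/-epi libraries. Unlike the ligands it was highest in replicate 10 and lowest in replicate 9 of the latter.

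Within a genotype the mean log2 CPM of that list had no relation with either ligand that passed adjustment. With 2610528A11Rik r was 0.62 in Pparg-/-epi libraries (exact permutation p = 0.179, adjusted p = 0.778), rho was 0.71 (exact p = 0.136, adjusted p = 0.817), and r fell to 0.07 without replicates 8 and 10. In WT r was 0.38 (exact permutation p = 0.465, adjusted p = 0.892), rho 0.37 (exact p = 0.497, adjusted p = 0.952), and r 0.28 without replicates 3 and 4. With Igfl3 r was 0.07 in Pparg-/-epi libraries (exact permutation p = 0.892, adjusted p = 0.892) and -0.10 in WT (exact permutation p = 0.853, adjusted p = 0.892). Its rho was 0.20 (exact p = 0.714, adjusted p = 0.952) and 0.03 (exact p = 0.983, adjusted p = 0.983), and r without the 2 farthest libraries was 0.34 and 0.31. On CPM in place of log2 CPM, an alternative added after the data were seen, r with Igfl3 in Pparg-/-epi libraries was 0.80 (exact permutation, adjusted p = 0.172) and r with 2610528A11Rik in WT was 0.88 (exact permutation, adjusted p = 0.125).

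Genes of the insulin-like growth factor system, to which the IGFL family is only loosely related, were listed for 15 of 16. None was higher and 2 were lower, a share near the 10.3% of all genes that were altered, with a median log2 fold change of -0.05. The 2 were Irs1, an adaptor of the insulin and insulin-like growth factor receptors (-1.02, adjusted p = 0.000942), and Igfbp3, a binding protein (-1.05, adjusted p = 0.0441). The count of 2 became 5 without WT replicate 2 and 1 without WT replicate 3, 4, 5 or 6 or Pparg-/-epi replicate 7, 8, 9 or 12. Over all genes the number altered, 1493 with all libraries, was 2249 in the former fit and 1116 to 1403 in the latter.

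Of the 23 genes of tumour necrosis factor signalling, all listed, 6 were higher and 1 was lower, beside 5.19% higher and 10.3% altered of all genes, with a median log2 fold change of 0.30. In females alone 2 were altered, beside 651 over all genes in that fit. The largest changes were those of Traf1 (1.19, adjusted p = 0.00647), Traf5 (-1.14, adjusted p = 0.000345), Tnf itself (0.92, adjusted p = 0.0381) and its receptor Tnfrsf1b (0.88, adjusted p = 0.0329). The count of 7 became 3 without WT replicate 4 or Pparg-/-epi replicate 7 or 9, and 4 without Pparg-/-epi replicate 8. Over all genes the number altered, 1493 with all libraries, was 1116 to 1219 in these fits.

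**Figure D5:**
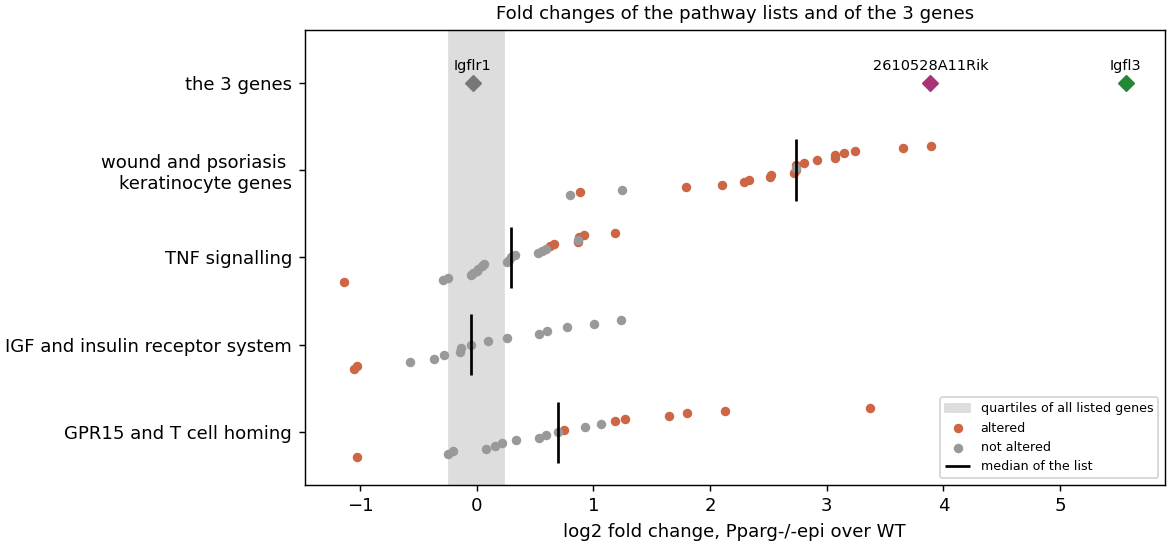
Log2 fold change of Pparg-/-epi over WT (horizontal axis) for each listed gene of 4 pathway lists, with medians as bars, altered genes in orange and the quartiles of all 14533 genes as a grey band. Diamonds give Igfl3, Igflr1 and 2610528A11Rik, which were chosen with this contrast known. The lists were also chosen with earlier results of these data known. Of the 4 lists, that of wound and psoriasis genes lies farthest from the band, and Igflr1 lies inside it.

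The remaining marker lists describe what else the scrapings held. All 7 mast cell markers were altered and higher in Pparg-/-epi, beside 5.19% of all genes. Fcer1a, with 0 to 1 counts in WT and 17 to 44 in Pparg-/-epi libraries, is listed only through the latter. The sums of the 7 were 20.0 to 95.3 CPM in WT and 138 to 250 CPM in Pparg-/-epi libraries. By mean CPM, Mcpt4 was the most abundant in WT (24.2), and in Pparg-/-epi libraries Cpa3 (56.1) was, with Mcpt4 at 54.7. Of 6 neutrophil markers only Cxcr2 and Csf3r were listed, with sums of 0.944 to 4.92 and 9.71 to 17.0 CPM. Cxcr2 was altered and higher, beside 5.19% of all genes, and Csf3r was not altered (adjusted p = 0.0688). By mean CPM in Pparg-/-epi libraries, the sum is mostly Cxcr2 (10.6, beside 2.82 for Csf3r). Langerhans cell markers (Cd74 the most abundant, 1 of 6 higher, beside 5.19% of all genes) summed to 1401 to 3356 and 1787 to 2093 CPM. Macrophage markers (Lyz2, 0 of 7 altered, beside 10.3% of all genes) summed to 91.7 to 706 and 238 to 439 CPM. B cells had 1 of 6 markers listed, Jchain, at 0.237 to 7.22 and 0.312 to 2.15 CPM.

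Of 7 sebocyte markers 6 were listed, and 5 were altered and lower, beside 10.3% of all genes altered in either direction. Their sums were 19.5 to 935 CPM in WT and 2.41 to 10.3 CPM in Pparg-/-epi libraries. By mean CPM, Scd3 was the most abundant in WT (105) and Elovl3 in Pparg-/-epi libraries (1.91). Muscle markers (Myh4, 0 of 5 altered) summed to 10.0 to 9059 and 8.48 to 354 CPM, and melanocyte markers (Dct, 0 of 4 listed altered) to 3.52 to 38.0 and 10.5 to 166 CPM. The sums of mast cell and neutrophil markers were thus higher in all Pparg-/-epi libraries than in all WT libraries, as both ligands were. The sum of sebocyte markers separated the genotypes in the other direction. The part of these cells in the ligand levels was not tested.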

How the data were processed

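The authors aligned the reads with STAR 2.5.2b to mm10, per the submitters' processing notes, and deposited a table of counts per gene, made with featureCounts of Subread 1.5.1, without normalization. The use of strand in counting is not stated. The deposited table also gives each gene's exon length, used here for RPKM. Blank rows, 2800 in all, hold no counts and were dropped, and no further filter was applied to the 14533 genes.

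Counts were compared with edgeR 4.0.16 in R 4.3.3 (TMM factors, quasi-likelihood test, genotype as the only term, Benjamini-Hochberg adjustment over all genes), and every adjusted p for a gene comes from this test unless another is named. The fits were tested on simulated data. Alternatives were edgeR's likelihood ratio test, DESeq2 1.42.0, other scalings and filters, covariates, females alone and leaving out each library. Log2 CPM used a prior count of 2. Correlations used exact permutation in Python 3.11.15. Figures used matplotlib 3.10.9.

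The genes named are the 3 genes, Il1f6, Pparg, altered genes of the Gpr15 list, up to 4 altered genes with the largest change of each other pathway list, neighbours and overlapping genes, the 5 most alike genes of each, and the most abundant gene of each marker list. Other markers named were chosen after their values were seen, as were the sequence words. The members and lists were chosen with earlier results of these data known. There were 4 pathway lists and 12 marker lists, and each list's counts and median or sums are given.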

Additional observations from a re-analysis of the deposited data

Results flagged for a closer look

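In each group of 6 libraries, a value was set apart when its gap to the next value, as a share of the group's range, passed Dixon's 95% limit. Of 44 groups examined, 10 had such a value, each the highest of its group. The limit is set for normally distributed values, which CPM and summed CPM need not be. The groups also share libraries, so no rate expected by chance is given. No value of Igfl3, Igflr1 or 2610528A11Rik was among them.

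WT replicate 2 was set apart in 4 measures. Its Pparg level was 14.28 CPM, with the next WT library at 4.58. The summed CPM of the Gpr15 and T cell homing list was 756.7 there (next 549.6), that of Langerhans cell markers 3356 (next 2007) and that of B cell markers 7.217 (next 1.28). WT replicate 1 had 8.501 CPM of Il1f6 (next 3.09) and 34533 CPM of fibroblast markers (next 10471). WT replicate 5 had 9059 CPM of muscle markers (next 230.8).

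Among Pparg-/-epi libraries, replicate 12 had 1471 CPM of the tumour necrosis factor list (next 1179). Replicate 8 had 353.7 CPM of muscle markers (next 115.6) and 166.1 CPM of melanocyte markers (next 59.9). The part of these in the levels of the 3 genes was not tested, and the range of each gene's fold change over all alternatives, which include leaving out each library, is given with the processing.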

How the results depend on the processing

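Over all alternatives the log2 fold change ran from 5.29 to 6.25 for Igfl3, from 3.60 to 4.27 for 2610528A11Rik and from -0.15 to 0.08 for Igflr1, each within 1 SD of log2 CPM between replicates. Igfl3 has libraries with fewer than 10 counts, so the filter of 10 counts in every library gives no value for it. The groups share no replicate numbers, and the labels do not say which mice were siblings, although the study describes its WT mice as sibling controls, so no paired fit was run.

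The number of altered genes was 651 in females alone, where fewer libraries were tested, and ran from 1116 to 2249 when single libraries were left out. In females alone, 1 gene was altered in the Gpr15 and T cell homing list, 1 in the insulin-like growth factor list and 2 in the tumour necrosis factor list. With mouse name block as a term, an alternative added after the data were seen, 1 gene of the insulin-like growth factor list was altered. With single libraries left out these counts ran from 3 to 11, from 1 to 5 and from 3 to 9, and the wound and psoriasis list held 18 or 19. The cause was not tested.

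No sex difference or interaction of the 3 genes passed adjustment where an adjusted p was given (lowest 0.187 and 0.293). DESeq2 gave none for the interaction of Igfl3 and Igflr1. Leaving out single libraries, the sex difference ran from -0.47 to 0.10 for 2610528A11Rik (highest without WT replicate 2) and from -1.07 to -0.00133 for Igfl3. The interaction ran from -3.90 to 1.15 for Igfl3 (highest without WT replicate 1) and from -1.64 to -0.0912 for 2610528A11Rik.

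No relation passed adjustment under an alternative that kept all 6 libraries (lowest adjusted p 0.125). With 5 libraries the smallest exact p, if 1 relation alone reaches it, adjusts to 0.100, so those settings say nothing about passing. The r of Igfl3 with Igflr1 stayed negative in both genotypes. Signs changed as single libraries were left out. For WT, r ran from -0.20 to 0.71 for Igfl3 with 2610528A11Rik, from -0.04 to 0.56 for Igflr1 with 2610528A11Rik, from -0.34 to 0.43 for Igfl3 with the wound list and from -0.64 to 0.35 for Igflr1 with T cell markers. For Pparg-/-epi libraries it ran from -0.26 to 0.66 and from -0.51 to 0.57 for the former 2 pairs, and from -0.25 to 0.76 for Igfl3 with the wound list. The r of 2610528A11Rik with the wound list kept its sign, from 0.20 to 0.75 in WT and from 0.45 to 0.74 in Pparg-/-epi libraries. In WT, r was -0.0458 for Igflr1 with T cell markers at a prior count of 0.5, and 0.50 for Igfl3 with the wound list in CPM, an alternative added after the data were seen. In CPM, r was also 0.80 for Igfl3 with the wound list in Pparg-/-epi libraries and 0.88 for 2610528A11Rik with it in WT. The cause was not tested.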

Other observations

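Several limits bear on these values. Igfl3 in WT rests on 24 counts, so its fold change is uncertain in size. With 6 libraries a relation must be near perfect to pass adjustment over 12. Mouse name, sex, age and RIN are unevenly spread, and ages are those of the sample labels. The use of strand in counting is not known, which touches genes with neighbours on the other strand. The tissue was scraped by hand, and the sums of vessel, fibroblast and muscle markers vary widely within a genotype. Protein was not measured.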
